A study of Mus musculus with 34 samples.

Results

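A set of 9 genes of liver glucose and glycogen metabolism was followed through the first day after partial hepatectomy (PHx) in mice with and without intestinal sirtuin 1: Pck1, Fbp1, Pklr, Hk2, Pfkfb3, Ppargc1a, Slc2a2, Gys2 and Pygl. The genes were taken by gene name from the count table, 9 of its 78298 genes, and all 9 passed the filter on low counts. The animals were male mice of 8 to 12 weeks on a C57/Bl6 background. SIRT1intKO mice carried a Villin-Cre transgene, which acts in the intestinal epithelium, and Sirt1 alleles with loxP sites around exon 4, so the deletion was not directed at the liver that was sequenced. WT mice carried the same floxed alleles without Cre. RNA of whole liver was sequenced from untreated animals, called 0 h (6 WT and 6 SIRT1intKO), and at 6 h (6 WT and 5 SIRT1intKO) and 24 h (4 WT and 7 SIRT1intKO) after 70% PHx, in which the median and left lateral lobes were removed.

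The liver keeps blood glucose steady by making glucose from lactate and amino acids (gluconeogenesis), by storing it as glycogen, and by releasing it from that store. Gluconeogenesis and glycolysis run in opposite directions over shared steps, and the steps that are not shared carry their own enzymes, many of them set by insulin, glucagon and glucose at the level of transcription. After PHx the remnant liver has to supply the whole body with glucose while its hepatocytes prepare to divide.

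Each library held between 14892122 and 23480492 assigned counts. Expression is given as CPM (each gene's counts scaled to a common library total), which serve to compare 1 gene between livers and not different genes with each other, since they are not corrected for gene length. The labelled tissue matched its defining markers: all 11 measured hepatocyte genes were present in every library, summing to between 50955 and 102831 CPM. Liver Sirt1 lay between 6.92 and 23.1 CPM and does not check an intestinal deletion. The 4 WT livers at 24 h were the least alike (median correlation of log2 CPM with the rest of their group 0.898 to 0.918, against 0.945 to 0.967 in SIRT1intKO at 24 h), so the genes of the set are given liver by liver in that group. The 0 h libraries carry a separate number series in the labels, and a difference in handling cannot be told apart from the effect of PHx. Neither feeding nor time of day is stated.

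Of the 9 genes, 7 were called changed against 0 h in at least 1 genotype and time, 5 of them lower (Pck1, Pklr, Slc2a2, Gys2 and Pygl) and 2 higher (Hk2 and Ppargc1a). Of all genes tested, 33.4% were called in at least 1 of these 4 comparisons. The 9 genes were chosen with earlier results of these data known, so these shares do not test the set. Pygl and Pklr, which encode the liver enzymes of glycogen breakdown and of the last step of glycolysis, fell at 6 h and at 24 h in both genotypes. A gene was called changed when its adjusted p was below 0.05 and its log2 fold change exceeded 1 in either direction, the thresholds of the study. In WT livers 1 gene was called higher and 3 lower at 6 h, where 15.6% of the 14980 genes tested were called, 7.17% higher and 8.4% lower. At 24 h in WT none was higher and 5 were lower, where 15.7% of all genes were called, 8.32% higher and 7.4% lower. In SIRT1intKO livers none was higher and 2 were lower at 6 h, beside 16.6% of all genes, 7.86% higher and 8.7% lower. At 24 h in SIRT1intKO 1 was higher and 2 were lower, beside 23% of all genes, 11.9% higher and 11.1% lower. These 4 comparisons use the same 0 h livers within a genotype and are not independent of each other. From 6 h to 24 h, none rose and 3 fell in WT, beside 7.16% of all genes, 4.44% higher and 2.72% lower. In SIRT1intKO 1 rose and 3 fell, beside 10.6% of all genes, 6.7% higher and 3.91% lower. The median log2 change over the 9 genes was 0.12 in WT and 0.14 in SIRT1intKO at 6 h, and -1.13 and -0.69 at 24 h, while the median over all tested genes stayed between 0.01 and 0.04.

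**Figure D1:**
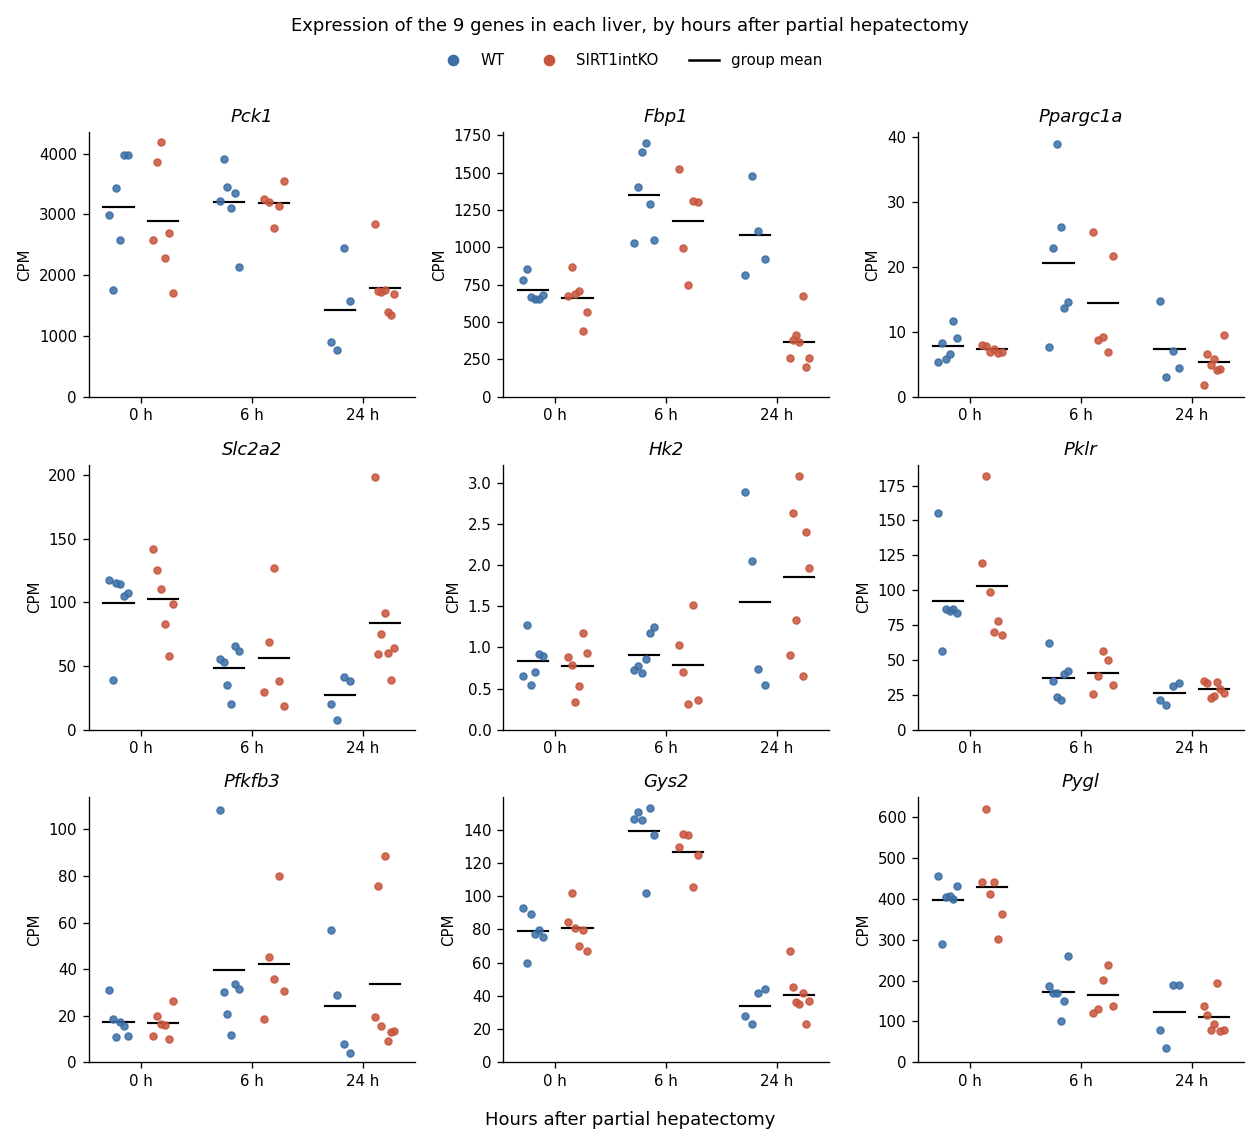
Expression of the 9 genes in CPM (vertical axes, linear, starting at 0) in each liver at 0, 6 and 24 h after PHx, with WT in blue, SIRT1intKO in red and a black bar at each group mean. Pklr and Pygl dropped by 6 h in both genotypes, Gys2 was higher at 6 h and lowest at 24 h, and Fbp1 separated the genotypes at 24 h, with 815 to 1481 CPM in WT and 197 to 675 CPM in SIRT1intKO.

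Promoter sequences of 8 of the 9 genes were matched in RefSeq (GRCm38.p6, 250 bases before to 50 bases after the start of transcription). Those of Pck1 and Ppargc1a are shown because both genes are known targets of cAMP signalling, the pathway by which glucagon acts, and those of Fbp1 and Slc2a2 because these genes differed between genotypes at 24 h. Capitals mark matches to the core of the cAMP response element (TGACG), the E-box (CACGTG), a forkhead motif (GTAAACA) or the core bound by hypoxia-inducible factors (ACGTG, which lies inside CACGTG), searched on both strands.
Pck1 promoter, chr2:173152823-173153122, + strand: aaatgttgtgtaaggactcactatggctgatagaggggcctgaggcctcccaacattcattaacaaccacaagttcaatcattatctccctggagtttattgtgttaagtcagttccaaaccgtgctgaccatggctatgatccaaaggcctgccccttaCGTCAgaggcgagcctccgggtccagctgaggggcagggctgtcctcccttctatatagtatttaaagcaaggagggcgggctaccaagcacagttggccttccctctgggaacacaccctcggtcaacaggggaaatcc
Ppargc1a promoter, chr5:51567676-51567975, - strand: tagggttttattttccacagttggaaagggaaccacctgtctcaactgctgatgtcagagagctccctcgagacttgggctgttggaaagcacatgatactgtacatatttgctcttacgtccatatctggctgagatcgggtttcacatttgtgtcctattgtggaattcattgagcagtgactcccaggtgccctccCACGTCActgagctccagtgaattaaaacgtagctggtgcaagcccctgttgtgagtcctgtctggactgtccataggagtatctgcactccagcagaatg
Fbp1 promoter, chr13:62888233-62888532, - strand: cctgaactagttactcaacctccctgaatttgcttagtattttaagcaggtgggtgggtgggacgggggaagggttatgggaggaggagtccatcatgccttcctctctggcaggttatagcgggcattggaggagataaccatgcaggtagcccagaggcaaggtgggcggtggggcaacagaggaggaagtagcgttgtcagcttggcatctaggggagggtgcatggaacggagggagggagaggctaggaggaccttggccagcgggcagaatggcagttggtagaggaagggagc
Slc2a2 promoter, chr3:28697653-28697952, + strand: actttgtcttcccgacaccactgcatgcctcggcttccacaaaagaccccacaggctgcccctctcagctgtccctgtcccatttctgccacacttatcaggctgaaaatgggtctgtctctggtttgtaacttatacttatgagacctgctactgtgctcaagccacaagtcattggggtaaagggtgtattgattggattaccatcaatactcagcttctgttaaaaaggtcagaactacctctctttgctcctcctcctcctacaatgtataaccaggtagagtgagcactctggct
The Pck1 match was a TGACG on the opposite strand, with its far end at base -90 from the start. In Ppargc1a, a TGACG with its far end at base -49 and an ACGTG with its far end at base -51 overlapped, both on the opposite strand. Neither the Fbp1 nor the Slc2a2 window held a match. TGACG occurred in 20.8% of all 32851 promoters of this length, ACGTG in 19.6%, CACGTG in 7.15% and GTAAACA in 3.65%. Among the 10 promoters listed for the 8 genes, TGACG was found in 6, ACGTG in 5, CACGTG in 1 and GTAAACA in 0. These letters describe the windows and were not tested as sites.

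Gluconeogenesis was represented by Pck1 and Fbp1. Pck1 encodes cytosolic phosphoenolpyruvate carboxykinase, which commits oxaloacetate to glucose synthesis. No change passed the test at 6 h. The WT livers ran from 1754 through a median of 3210.1 to 3980.1 CPM at 0 h and from 2136 through 3285 to 3918 CPM at 6 h. The SIRT1intKO livers ran from 1709.6 through 2639 to 4188 CPM at 0 h and stood at 3257, 3198, 2771, 3136 and 3545 CPM at 6 h. At 24 h Pck1 was lower. The 4 WT livers read 897, 762, 2445 and 1582 CPM, and the SIRT1intKO livers ran from 1337 through 1730.2 to 2849 CPM. Of the 4 WT livers, 3 lay below every liver at 0 h, whereas the highest overlapped that range. In WT Pck1 fell by 1.13 on the log2 scale (SE 0.283, edgeR adjusted p 0.00274, 2.19-fold lower). In SIRT1intKO the log2 change was -0.69 (SE 0.235, adjusted p 0.0148), which did not reach the fold threshold. The WT call rested on replicates 1 and 2: without either of them the log2 change was -0.96 or -0.93 and the call was lost. In bulk tissue fewer hepatocytes and less transcript per hepatocyte cannot be told apart, here or below.

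Fbp1 encodes fructose-1,6-bisphosphatase, the gluconeogenic counterpart of phosphofructokinase, and it differed between the genotypes at 24 h. At 0 h it ran from 655 through 677 to 854 CPM in WT and from 439.7 through 684 to 867 CPM in SIRT1intKO. At 6 h WT livers ran from 1029 through 1348 to 1699 CPM, and the SIRT1intKO livers read 1522, 993, 751, 1314 and 1304 CPM. Every WT liver at 6 h was above every WT liver at 0 h, and 4 of the 5 SIRT1intKO livers were above their 0 h range. The log2 changes, 0.92 in WT (SE 0.223, edgeR adjusted p 0.00165) and 0.84 in SIRT1intKO (SE 0.232, adjusted p 0.00494), passed the p threshold and not the fold threshold. At 24 h the WT livers read 815, 1481, 1107 and 921 CPM, and the SIRT1intKO livers ran from 197 through 367 to 675 CPM. WT thus remained above its 0 h median in all 4 livers, with a log2 change of 0.59 (SE 0.245, adjusted p 0.0596). SIRT1intKO livers went the other way, with -0.85 against 0 h (SE 0.213, adjusted p 0.00142), and from 6 h to 24 h Fbp1 fell by 1.69 on the log2 scale (SE 0.224, adjusted p 4.07e-06) with no overlap between the groups.

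Ppargc1a encodes PGC-1 alpha, the coactivator that drives gluconeogenic and mitochondrial genes during fasting. It rose briefly. At 0 h it ran from 5.31 through 7.39 to 11.6 CPM in WT and within 6.82 to 7.99 CPM in SIRT1intKO. At 6 h WT livers ran from 7.66 through 18.8 to 39.0 CPM, and the SIRT1intKO livers read 25.4, 8.80, 9.18, 6.92 and 21.7 CPM. In WT 5 of the 6 livers at 6 h exceeded the highest at 0 h, whereas the SIRT1intKO group split, with 2 livers above 20 CPM and 3 below 10. The log2 change was 1.41 in WT (SE 0.375, edgeR adjusted p 0.00348, called) and 0.98 in SIRT1intKO (SE 0.389, adjusted p 0.0451, short of the fold threshold). The difference between these responses was -0.43 (95% interval -1.49 to 0.62, adjusted p 1.00). At 24 h Ppargc1a read 14.8, 3.09, 7.12 and 4.38 CPM in WT and lay between 1.81 and 9.59 CPM in SIRT1intKO. The WT liver at 14.8 CPM was still above the WT range at 0 h. From 6 h to 24 h the log2 change was -1.50 in WT (edgeR adjusted p 0.0168) and -1.43 in SIRT1intKO (adjusted p 0.00509), both called. The WT fall was not called without WT 6 h replicate 3 (-1.20, adjusted p 0.0552) or WT 24 h replicate 2 (-1.23, adjusted p 0.0747).

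Slc2a2 encodes GLUT2, the transporter through which glucose enters and leaves the hepatocyte. In WT it went from a range of 39.0 to 117 CPM (median 111) at 0 h to 20.4 to 65.9 CPM (median 54.5) at 6 h and to 20.2, 7.48, 41.6 and 38.4 CPM at 24 h. Apart from 1 WT liver at 39.0 CPM, all WT livers at 0 h lay above 100 CPM and above every later WT liver. In SIRT1intKO it ran from 57.8 through 105 to 142 CPM at 0 h, read 29.7, 69.0, 127, 38.1 and 18.8 CPM at 6 h, and ran from 39.2 through 63.9 to 199 CPM at 24 h. In WT the log2 change was -1.03 at 6 h (SE 0.414, edgeR adjusted p 0.0484) and -1.89 at 24 h (SE 0.493, adjusted p 0.00384, 3.71-fold lower), both called. From 6 h to 24 h the WT change was not called (-0.86, adjusted p 0.223, groups overlapping). The 6 h call lay at the threshold and was lost in 16 of the 34 fits that left out 1 library. In SIRT1intKO the log2 changes were -0.87 (adjusted p 0.117) and -0.30 (95% interval -1.07 to 0.48, adjusted p 0.551).

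Pklr encodes liver pyruvate kinase, the last enzyme of glycolysis and a classical target of insulin and glucose. At 0 h it ran from 56.4 through 85.7 to 155 CPM in WT and from 67.8 through 88.2 to 182 CPM in SIRT1intKO. At 6 h WT livers ran from 21.2 through 37.6 to 61.8 CPM, and SIRT1intKO livers read 25.8, 38.6, 56.2, 49.8 and 31.9 CPM. At 24 h the WT livers read 21.3, 17.5, 31.1 and 33.5 CPM, and the SIRT1intKO livers ran from 22.3 through 28.9 to 34.7 CPM. The 24 h values lay below every 0 h value in both genotypes. Pklr fell by 1.31 on the log2 scale in WT and by 1.34 in SIRT1intKO at 6 h (edgeR adjusted p 0.000226 and 0.000347). At 24 h it had fallen by 1.83 and 1.82 (adjusted p 5.27e-05 and 1.12e-06), 3.56-fold and 3.52-fold below 0 h. The genotypes gave the same log2 change at 24 h to within 0.02 (95% interval of the difference -0.73 to 0.77).

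Hk2 encodes hexokinase 2, which phosphorylates glucose in muscle, in leukocytes and in proliferating cells and is scarce in resting hepatocytes. It was low throughout. The 0 h livers lay between 0.541 and 1.28 CPM in WT and between 0.341 and 1.18 CPM in SIRT1intKO, and the 6 h livers between 0.314 and 1.52 CPM. At 24 h the WT livers read 2.89, 2.06, 0.733 and 0.548 CPM, and the SIRT1intKO livers ran from 0.657 through 1.965 to 3.09 CPM. In both genotypes part of the 24 h livers lay within the 0 h range. The SIRT1intKO log2 change against 0 h was 1.24 (SE 0.395, edgeR adjusted p 0.00975, 2.37-fold higher) and was called, and the WT change was 0.88 (SE 0.443, adjusted p 0.122). From 6 h to 24 h Hk2 also rose in SIRT1intKO (log2 change 1.23, adjusted p 0.0279), a call that was lost without any 1 of 5 libraries (SIRT1intKO 24 h replicates 2 and 4 and SIRT1intKO 6 h replicates 2, 3 and 5, adjusted p 0.0502 to 0.0817).

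Pfkfb3 encodes a kinase that makes fructose-2,6-bisphosphate, the signal that opens glycolysis at phosphofructokinase and restrains fructose-1,6-bisphosphatase. Its log2 changes had larger SEs than those of the other 8 genes in each comparison with 0 h. At 0 h it ran from 10.8 through 16.6 to 31.2 CPM in WT and from 10.1 through 16.2 to 26.4 CPM in SIRT1intKO. At 6 h the WT livers ran from 11.9 through 30.9 to 109 CPM and the SIRT1intKO livers read 18.5, 45.4, 35.9, 80.0 and 30.5 CPM. At 24 h the WT livers read 56.7, 29.02, 7.85 and 3.93 CPM, and the SIRT1intKO livers ran from 9.10 through 15.6 to 88.6 CPM. All of these ranges overlapped. No comparison was called: the log2 changes at 6 h were 1.17 in WT and 1.33 in SIRT1intKO (SE 0.577 and 0.599, edgeR adjusted p 0.110 and 0.0776), and both were called when the fit used the compared groups alone (adjusted p 0.0375 and 0.00454).

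The glycogen enzymes moved in opposite directions at 6 h and together at 24 h. Pygl encodes liver glycogen phosphorylase, which releases glucose units from glycogen. At 0 h it ran from 289 through 405 to 456 CPM in WT and from 301 through 427 to 619 CPM in SIRT1intKO. At 6 h WT livers ran from 102 through 169.5 to 261 CPM, and the SIRT1intKO livers read 119.6, 129.6, 202, 238 and 138 CPM. At 24 h the WT livers read 79.4, 35.2, 188 and 189 CPM, and the SIRT1intKO livers ran from 76.2 through 93.6 to 194 CPM. Every liver after PHx lay below every 0 h liver of its genotype. Pygl fell by 1.20 on the log2 scale in WT and by 1.38 in SIRT1intKO at 6 h (edgeR adjusted p 0.00168 and 0.000861), and by 1.69 and 1.95 at 24 h (adjusted p 0.000401 and 2.09e-06).

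Gys2 encodes liver glycogen synthase, which builds the store. At 0 h it ran from 60.0 through 78.3 to 92.8 CPM in WT and from 66.8 through 80.3 to 102 CPM in SIRT1intKO. At 6 h WT livers ran from 102 through 146 to 153 CPM, and the SIRT1intKO livers read 129.7, 138, 137, 105 and 125 CPM. All 6 h livers lay above all 0 h livers of their genotype, yet the log2 changes of 0.81 and 0.65 (SE 0.176 and 0.183, edgeR adjusted p 0.000504 and 0.00537) stayed under the fold threshold. By 24 h the direction had turned, with WT livers at 27.8, 23.3, 41.6 and 44.2 CPM and SIRT1intKO livers from 22.9 through 36.7 to 67.2 CPM. Gys2 fell by 2.02 on the log2 scale from 6 h to 24 h in WT and by 1.64 in SIRT1intKO (adjusted p 1.85e-07 and 1.78e-07), with no overlap in either genotype. Against 0 h the WT change was -1.21 (adjusted p 5.46e-05, called) and the SIRT1intKO change -0.99 (adjusted p 2.1e-05), just short of the fold threshold, which it crossed in 15 of the 34 fits without 1 library. Over the 9 genes, the groups did not overlap for 3 at 6 h against 0 h in WT (Fbp1, Gys2 and Pygl, beside 24.1% of all genes) and for 3 in SIRT1intKO (Pklr, Gys2 and Pygl, beside 26.2%). At 24 h against 0 h they did not overlap for 3 in WT (Pklr, Gys2 and Pygl, beside 19.3%) and for 2 in SIRT1intKO (Pklr and Pygl, beside 22%). From 6 h to 24 h they did not overlap for 1 in WT (Gys2, beside 7.36%) and for 2 in SIRT1intKO (Fbp1 and Gys2, beside 8.81%).

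Whether intestinal SIRT1 affected these genes was asked at each time. At 0 h and at 6 h none of the 9 genes was called between SIRT1intKO and WT by edgeR or by DESeq2. Over all genes edgeR called 0% at either time, and DESeq2 called 6 genes at 0 h and 9 at 6 h. None of the 9 had an unadjusted p below 0.05, beside 1.07% of all genes at 0 h and 6.52% at 6 h. None of the 9 had groups that did not overlap (0.0668% and 0.474% of all genes). The log2 differences lay between -0.12 and 0.15 at 0 h and between -0.52 and 0.21 at 6 h, with 95% intervals reaching from -1.19 to 1.06 and from -1.28 to 1.26. At 24 h 2 of the 9 genes were called, 1 lower and 1 higher in SIRT1intKO, beside 2.68% of all genes, 1.3% lower and 1.38% higher. Fbp1 was lower in SIRT1intKO by a log2 difference of -1.57 (SE 0.234, edgeR adjusted p 0.000769, 2.96-fold), with the lowest WT liver at 815 CPM and the highest SIRT1intKO liver at 675 CPM. Among the 9 genes it alone had groups that did not overlap at 24 h (1.97% of all genes). Slc2a2 was higher in SIRT1intKO by 1.64 (SE 0.479, adjusted p 0.0385, 3.12-fold), and its groups overlapped between 39.2 and 41.6 CPM. For the other 7 genes the log2 differences ran from -0.46 for Ppargc1a to 0.46 for Pfkfb3, and none was called.

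Both genotype calls depended on the fit. When only the 11 livers at 24 h were used to estimate the spread, the log2 differences were the same size but the adjusted p rose to 0.256 for Fbp1 and 0.259 for Slc2a2. The Fbp1 call held without any 1 library. The Slc2a2 call was lost without SIRT1intKO 24 h replicate 1 (log2 difference 1.25, adjusted p 0.0841), which had the highest value at 199 CPM, without SIRT1intKO 24 h replicate 3 (1.67, 0.0502), and without WT 24 h replicate 1 (1.51, 0.0710) or 2 (1.33, 0.107). The test of the difference itself, the change from 0 h to 24 h in SIRT1intKO less that in WT, gave -1.45 for Fbp1 (SE 0.324, unadjusted p 9.63e-05, adjusted p 0.0699) and 1.60 for Slc2a2 (SE 0.618, unadjusted p 0.0147, adjusted p 0.275). Neither was called, nor was any other of the 9 (0.00668% of all genes called, all of them higher, and 12.7% at an unadjusted p below 0.05). In the same test at 6 h no gene was called (0%), and none of the 9 had an unadjusted p below 0.05 (3.05% of all genes). With DESeq2 the Fbp1 difference of -1.44 at 24 h was called (adjusted p 0.00594). DESeq2 called 96 of all genes in that test, where edgeR called 1.

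**Figure D2:**
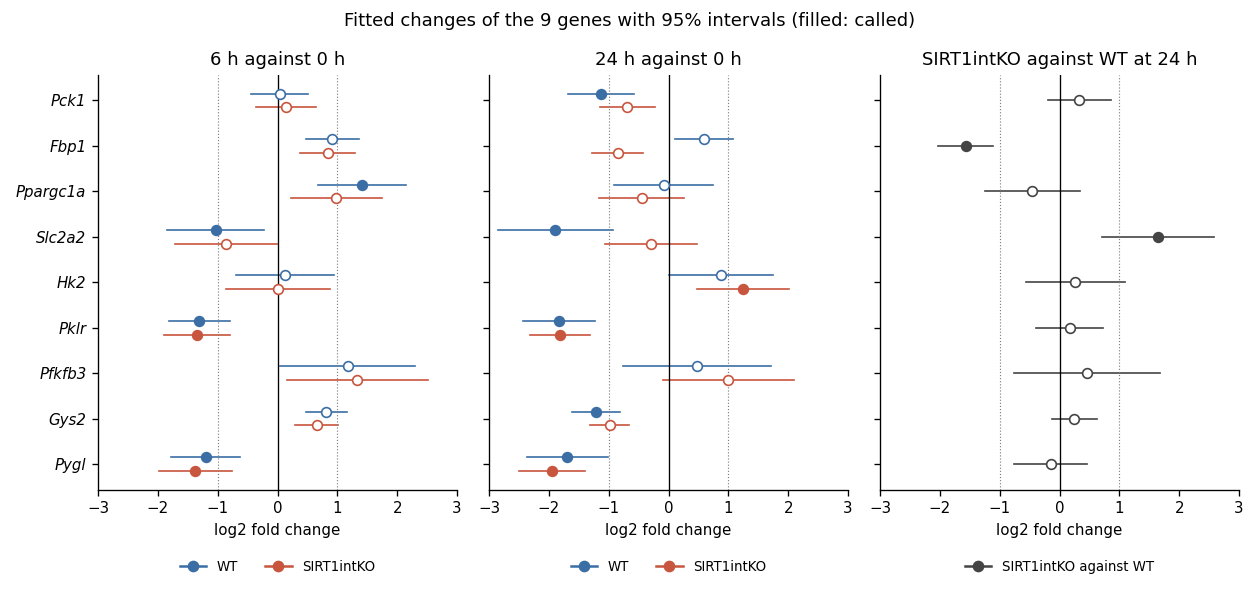
Fitted log2 fold changes (horizontal axes) of the 9 genes at 6 h and 24 h against 0 h in WT (blue) and SIRT1intKO (red), and in SIRT1intKO against WT at 24 h (grey). Points are estimates with 95% intervals, filled where the gene was called, and dotted lines mark a log2 change of 1 in either direction. Pklr and Pygl were filled in all 4 comparisons with 0 h, and Fbp1 at -1.57 and Slc2a2 at 1.64 were the only filled points between genotypes.

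The wider pathways held genes that rose and genes that fell. Of 107 further genes in 6 role lists, 106 were tested. In WT 13 were called higher and 9 lower at 6 h, and 16 higher and 9 lower at 24 h. In SIRT1intKO 12 were higher and 11 lower at 6 h, and 17 higher and 17 lower at 24 h. The median log2 change of these genes stayed between -0.11 and 0.06. Called genes made up 20.8%, 21.7%, 23.6% and 32.1% of the lists in WT and SIRT1intKO at 6 h and WT and SIRT1intKO at 24 h, beside 15.6%, 16.6%, 15.7% and 23% of all genes. At 6 h 7.17% and 8.4% of all genes were called higher and lower in WT, and 7.86% and 8.7% in SIRT1intKO. At 24 h the shares were 8.32% and 7.4% in WT, and 11.9% and 11.1% in SIRT1intKO. These shares of all genes stand beside the counts of each list below.

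Among 17 further gluconeogenic genes, 3 were called higher and none lower at 6 h in each genotype. At 24 h none was higher and 1 lower in WT, and 2 were higher and 2 lower in SIRT1intKO. Got1, the cytosolic aspartate aminotransferase that feeds carbon toward Pck1, rose at 6 h in both genotypes (log2 change 1.62 in WT, edgeR adjusted p 0.00135, and 1.28 in SIRT1intKO, adjusted p 0.0115). At 24 h it fell below 0 h in SIRT1intKO (-1.09, adjusted p 0.0135) and was lower there than in WT (-1.60, adjusted p 0.0199), at 124 ± 52.7 CPM (SD, n = 7) against 377 ± 155 CPM (SD, n = 4), the same direction as Fbp1. G6pc1, the glucose-6-phosphatase that frees glucose for export, fell at 24 h (log2 change -2.49 in WT, adjusted p 0.0103, and -3.71 in SIRT1intKO, adjusted p 1.77e-05). In WT livers G6pc1 ran from 97.4 to 758 CPM at 0 h and from 9.35 to 174 CPM at 24 h, with overlap. Pck2, the mitochondrial isoenzyme of Pck1, rose in SIRT1intKO at 24 h (1.99, adjusted p 1.56e-05), with 13.6 ± 7.90 CPM (SD, n = 7) there against 3.42 ± 0.662 CPM (SD, n = 6) in untreated SIRT1intKO livers. In WT it read 7.14 ± 3.94 CPM (SD, n = 4) at 24 h against 3.76 ± 0.814 CPM (SD, n = 6) at 0 h. Pck2 was not called between genotypes at 24 h.

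Of 27 further genes of glycolysis and hexose entry, 8 were called higher and 2 lower at 24 h in WT, and 6 higher and 2 lower in SIRT1intKO. At 6 h the counts were 3 higher and 2 lower in WT, and 1 higher and 4 lower in SIRT1intKO. Pkm, the pyruvate kinase of non-hepatocytes and dividing cells, rose at 24 h while Pklr fell, by a log2 change of 1.76 in WT and 1.95 in SIRT1intKO (adjusted p 2.24e-05 and 3.76e-07). Slc16a3, which exports lactate from glycolytic cells, was at most 0.835 CPM at 0 h and rose to between 0.548 and 6.70 CPM at 24 h (log2 change 2.77 in WT and 3.74 in SIRT1intKO, adjusted p 0.000295 and 1.89e-06). Among the 4 other genes around the fructose-bisphosphate switch, Pfkfb2, the kinase whose product acts like that of Pfkfb3, rose at 6 h in both genotypes (1.37 and 1.42, adjusted p 9.63e-07 and 1.36e-06). Pfkfb4 rose at 24 h in SIRT1intKO (1.34, adjusted p 0.000384). No other gene of that list was called against 0 h.

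At the entry of pyruvate into mitochondria, 11 genes were tested. Pdk4, which inhibits pyruvate dehydrogenase, rose at both times in both genotypes, with log2 changes of 2.43 and 2.46 at 6 h (edgeR adjusted p 0.00071 and 0.000996). Pdp1, the phosphatase that opposes it, rose at 24 h (3.66 in WT and 2.67 in SIRT1intKO, adjusted p 1.11e-05 and 7.34e-05). In WT at 24 h Pdp1 read 8.19 ± 8.79 CPM (SD, n = 4). Its lowest liver there, at 0.896 CPM, lay just above the highest WT liver at 0 h, at 0.868 CPM. Pdk4 ran from 5.77 to 149.5 CPM in WT at 24 h, which overlapped its WT range of 3.88 to 14.3 CPM at 0 h. Pdk2 fell at 24 h in SIRT1intKO (-1.72, adjusted p 2.52e-05). Its WT mean was 71.4 CPM at 0 h and 36.5 CPM at 24 h, and Pdk2 was not called between genotypes at 24 h. In all, 1 gene was higher and 1 lower at 6 h in WT, 1 higher and 0 lower at 6 h in SIRT1intKO, 3 higher and 1 lower at 24 h in WT, and 3 higher and 3 lower at 24 h in SIRT1intKO.

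Of 24 further glycogen genes tested, 2 were called higher and 3 lower at 6 h in each genotype, 2 higher and 2 lower at 24 h in WT, and 2 higher and 3 lower at 24 h in SIRT1intKO. Ppp1r3b, Ppp1r3c and Ppp1r3g encode subunits that bring protein phosphatase 1 to glycogen and favour its synthesis. Ppp1r3b fell at 6 h, with log2 changes of -2.31 in WT and -2.74 in SIRT1intKO (edgeR adjusted p 3.4e-05 and 1.34e-05), at the time when Gys2 itself was higher than at 0 h. Ppp1r3c fell at 6 h (-3.20 and -3.36, adjusted p 0.000588 and 0.000847), and Ppp1r3g fell at 24 h (-3.58 and -2.46, adjusted p 0.00216 and 0.00525), from a low level. Of 23 genes of hormonal and transcriptional control, 3 were higher and 3 lower at 6 h in WT and 4 and 4 in SIRT1intKO. At 24 h 3 were higher and 3 lower in WT, and 3 higher and 7 lower in SIRT1intKO. Mlxipl, which encodes the glucose-sensing activator of Pklr known as ChREBP, fell at 6 h (log2 change -2.08 in WT and -1.75 in SIRT1intKO, adjusted p 4.68e-05 and 0.000669). Irs1, an adaptor of the insulin receptor, fell at 6 h (-2.01 and -1.59, adjusted p 6.25e-06 and 0.00025). Sik1, a kinase induced by cAMP that restrains gluconeogenic transcription, rose at 6 h (2.47 and 4.03, adjusted p 0.00086 and 6.91e-06). Between genotypes at 24 h 3 of the 106 genes were called (2.83%, beside 2.68% of all genes), all lower in SIRT1intKO: Got1, and, named after their values were seen, the lactate transporter Slc16a1 (-1.19, adjusted p 0.00816) and Cebpa, a hepatocyte transcription factor (-1.37, adjusted p 0.0103).

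The genes nearest in pattern were found for each of the 7 members called against 0 h, by the root mean square difference of log2 CPM group means over the 6 groups, each centred, among 12385 other genes with a mean of at least 1 CPM. Pck1 was closest to Pank1, a pantothenate kinase, at a difference of 0.0507 log2 units, and to Zfp708 at 0.0891. Pygl was closest to Galm, the aldose mutarotase, at 0.0685 and to Npr2 at 0.0715. Pklr was followed by Cyp4v3 (0.0708) and Ugt2b34 (0.0777), Ppargc1a by Rnf103 (0.0697) and Pptc7 (0.105), and Hk2 by Abcc1 (0.0833) and Olfml3 (0.0837). Carmil1 was closest to Gys2 at 0.129, and Slc2a2 was followed by Pilrb1 at 0.104 and Cxcl11 at 0.128. With 6 points a close match is a description of these group means.

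Covariation between livers of a group was then measured. After the group means were removed, 10 of the 36 pairs of members correlated across the 34 livers (permutation within groups, two-sided, Benjamini-Hochberg adjusted p below 0.05), 8 of them positively. By Spearman's rho 8 pairs did so. Pklr, Pygl, Slc2a2 and Gys2 were correlated in all 6 of their pairs. The share of correlated pairs among all genes was not computed. Whether these counts set the members apart from other genes was therefore not tested. The closest pair by p was Pklr and Pygl, with Pearson's r 0.68 and Spearman's rho 0.79 (permutation p 1e-05 for each, the smallest that 100000 permutations can give, adjusted p 0.00036). Without the 2 livers farthest from the median of Pklr, r was 0.70, and it was 0.90 in the 11 livers at 24 h and 0.74 in the 23 others. Slc2a2 and Gys2 gave r 0.72 and rho 0.67 (permutation p 2e-05 and 0.00015, adjusted p 0.00036 and 0.00135), with r 0.64 without the 2 farthest livers.

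Pck1 went with Gys2 (r 0.68, rho 0.65, permutation p 0.0003 and 0.00061, adjusted p 0.00216 and 0.00439, r 0.63 without the 2 farthest). Pck1 with Slc2a2 gave r 0.49 and rho 0.42 (permutation p 0.00698 and 0.0246, adjusted p 0.0279 and 0.0821). It was 0.89 at 24 h, 0.15 in the livers at 0 h and 6 h, and 0.33 without the 2 farthest livers, so it rested on few livers. Fbp1 was in none of the 10 pairs, with r between -0.35 and 0.17 against the 8 other genes. The negative pairs were Pklr with Ppargc1a (r -0.48, rho -0.52, permutation p 0.00574 and 0.00599, adjusted p 0.0258 and 0.0270) and Hk2 with Gys2 (r -0.53, rho -0.51, permutation p 0.0117 and 0.0125, adjusted p 0.0423 and 0.05004). Without the 2 farthest livers these were -0.47 and -0.49.

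**Figure D3:**
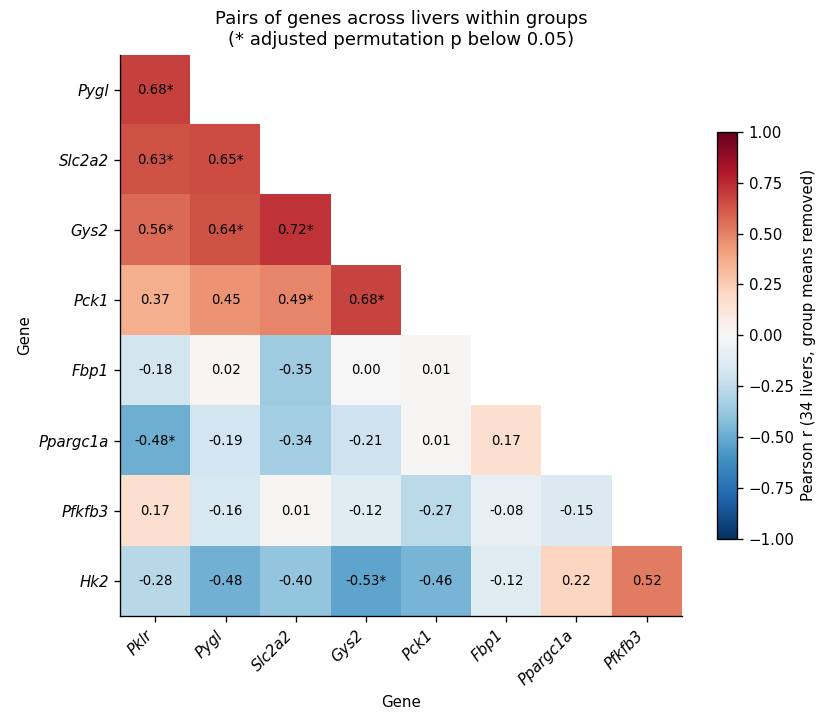
Pearson's r for each of the 36 pairs of genes across 34 livers after removal of group means, from blue (-1) through white (0) to red (1), with an asterisk where the adjusted permutation p was below 0.05. Pklr, Pygl, Slc2a2 and Gys2 form a block of 6 marked pairs between 0.56 and 0.72, and Fbp1 has no marked pair.

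Markers of other cells moved in the same libraries. The 10 neutrophil genes summed to 4.34 to 23.1 CPM at 0 h, to 124, 102, 14.5 and 8.36 CPM in the WT livers at 24 h and to between 23.51 and 959 CPM in SIRT1intKO at 24 h. All 7 tested were called higher there than at 0 h, beside 11.9% of all genes. Of the defining markers Ly6g was at 0 in 17 libraries and Camp in 26. Neither of them nor Ltf passed the filter on low counts. A scarce gene can pass that filter through the group where it is high, so the count of 7 is not independent of the rise. Hk2 and Pfkfb3 followed this list within groups: r was 0.67 and rho 0.64 for Hk2 (permutation p 0.00105 and 0.00124, adjusted over 27 relations p 0.0181 and 0.0145), and r was 0.69 and rho 0.63 for Pfkfb3 (permutation p 0.00134 and 0.00161, adjusted p 0.0181 and 0.0145). Without the 2 farthest livers r was 0.53 and 0.65. At 24 h it was 0.85 and 0.88, and in the livers at 0 h and 6 h 0.35 and 0.28. WT 24 h replicates 1 and 2, with the higher neutrophil sums, held the higher Hk2 and Pfkfb3 of that group and the lower Pck1, Pklr, Slc2a2, Gys2 and Pygl.

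**Figure D4:**
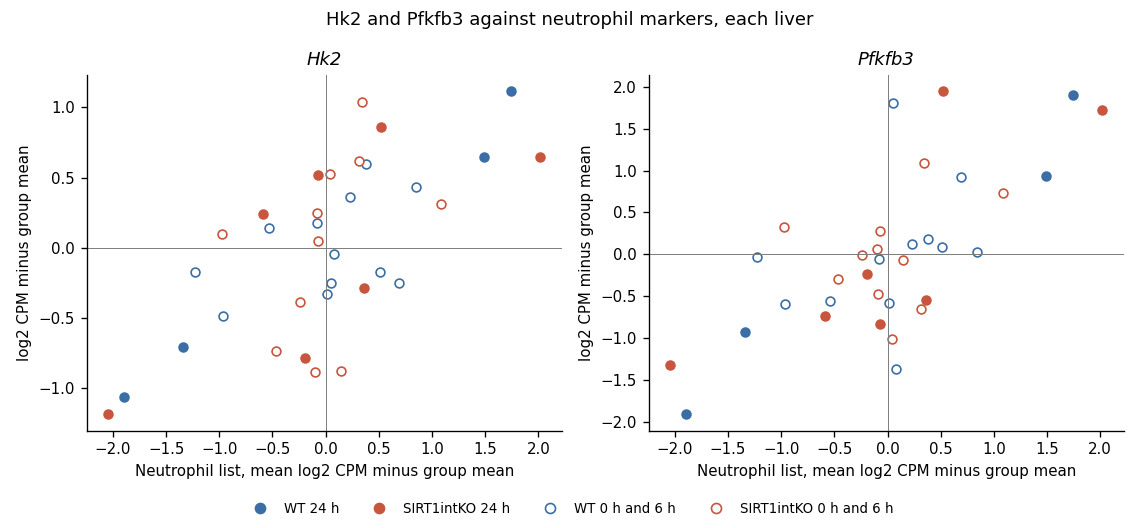
Hk2 (left) and Pfkfb3 (right) in each liver as log2 CPM minus the group mean (vertical), against the mean log2 CPM of the 7 tested neutrophil genes minus the group mean (horizontal), with 24 h livers filled. The points rise from lower left to upper right, with r 0.67 and 0.69, and the 24 h livers span most of the range.

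Fbp1 and Slc2a2 did not pass the test against the neutrophil list (r -0.17 and -0.26, rho -0.02 and -0.23, permutation p 0.436 and 0.246 for r and 0.938 and 0.250 for rho, adjusted p 0.619 and 0.416 for r and 0.938 and 0.422 for rho). Against the 12 monocyte and macrophage genes Fbp1 gave r -0.45 and rho -0.31 (permutation p 0.0382 and 0.111, adjusted p 0.129 and 0.249), with r -0.20 without the 2 farthest livers, -0.64 at 24 h and -0.17 at 0 h and 6 h. Against the hepatocyte genes it gave r 0.48 and rho 0.43 (permutation p 0.0365 and 0.0283, adjusted p 0.129 and 0.153), with r 0.41 without the 2 farthest livers. Neither passed adjustment. Pck1 followed the 11 hepatocyte genes (r 0.53, rho 0.57, permutation p 0.00344 and 0.00095, adjusted p 0.0310 and 0.0145, r 0.51 without the 2 farthest livers). Against the neutrophil list Pck1 gave r -0.53 and rho -0.57 (permutation p 0.0234 and 0.00522, adjusted p 0.105 and 0.0352, r -0.48 without the 2 farthest livers), past the threshold by rho only. The summed hepatocyte genes had medians of 86689 and 88507 CPM in WT and SIRT1intKO at 0 h and of 60813 and 76090 CPM at 24 h. Between genotypes at 24 h, where Fbp1 and Slc2a2 differed, 1 of the 7 neutrophil genes and 3 of the 12 monocyte and macrophage genes tested were called higher in SIRT1intKO, beside 1.38% of all genes. The part of cell makeup in the changes of the 9 genes was not tested. The circadian clock list also changed with time: 8 of its 16 genes were higher and 4 lower at 6 h than at 0 h in each genotype (75% called, beside 15.6% of all genes in WT and 16.6% in SIRT1intKO). At 24 h 3 were higher and none lower in WT (18.8%, beside 15.7% of all genes), and 4 were higher and 5 lower in SIRT1intKO (56.2%, beside 23%). Its part in the changes of the 9 genes was not tested.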

How the data were processed

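Poly(A) RNA of 34 livers was sequenced as stranded, paired-end libraries. The authors deposited 1 table of estimated counts per gene for the series, made, per the labels and methods, with STAR and Salmon on GRCm39. Tool versions and the annotation release are not given in the sources used here. Of the deposited values 4.97% were not whole and were rounded. The table has 35 columns of values, and 1 column that matched no sample's labels was not used. Its group was not assigned, so no call was examined with it, those that rest on single WT 24 h livers included. The group sizes stated in the figures of the study differ from the labels for WT. The labels give 6 WT livers at 6 h and 4 at 24 h, and the study states fewer at 6 h and more at 24 h. Gene symbols in the file had lost the letter x, which was restored by gene identifier for 1255 genes. The file pairs no coordinates with genes, and promoter coordinates are those of RefSeq on GRCm38.p6.

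Libraries were grouped by genotype and time from the labels, which call them biological replicates. Counts were fitted with edgeR 4.0.16 in R 4.3.3 (quasi-likelihood test, TMM scaling, default filter on low counts, 1 mean per group, all 34 libraries), leaving 14980 genes, with Benjamini-Hochberg adjustment over all of them in each of 11 comparisons. Intervals are normal 95% intervals from the standard error. CPM used the TMM-scaled library sizes, and correlations and patterns used log2 CPM with a prior count of 2. On simulated counts for 14611 genes, of which 200 were changed by 1.5 on the log2 scale, the fit called 183 of them at 24 h against 0 h in SIRT1intKO, 167 between genotypes at 24 h and 140 in the 24 h interaction. The simulation gave each gene the same spread in all groups, whereas the WT livers at 24 h were less alike than the others. It therefore does not give the recovery for comparisons with that group. Totals of 14892122 to 23480492 counts set the counting error. The edgeR p-values set each change against a spread between livers that was estimated for each gene over all 6 groups together. They do not measure the spread of the compared livers alone, which was larger in WT at 24 h. No pair of libraries within a group were alike within sampling noise (chi-square per gene at least 14.7).

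The 9 genes, the role and marker lists and the motifs were chosen with earlier results of these data known. Named beside the 9 genes were up to 3 genes of each role list with the largest change among those called against 0 h at a mean of at least 1 CPM, and the 2 nearest genes in pattern of each member called against 0 h. Of the genes this rule names, 2 are not reported here. Alternatives were DESeq2 1.42.0, edgeR with the size factors of DESeq2 or with upper-quartile scaling, filters keeping genes with any count or with 10 counts or more in each library, only the compared groups, a test against the fold threshold (glmTreat), no fold threshold, a replicate block, and each library left out in turn.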

Additional observations from a re-analysis of the deposited data

Results flagged for a closer look

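Among 54 sets of a gene in a group, 7 had a library far from the others by Dixon's test at the 95% level, where chance flags about 1 in 20. They came from 5 libraries. SIRT1intKO 24 h replicate 1 was high for Pck1 (2849 CPM, the others 1337 to 1759) and for Slc2a2 (199 CPM, the others 39.2 to 91.7). Without it the Slc2a2 difference between genotypes at 24 h was 1.25 on the log2 scale and not called (edgeR adjusted p 0.0841). WT 0 h replicate 2 was low for Slc2a2 (39.0 CPM, the others 105 to 117) and for Pygl (289 CPM, the others 399 to 456). WT 0 h replicate 1 was high for Pklr (155 CPM, the others 56.4 to 86.7), WT 6 h replicate 1 was high for Pfkfb3 (109 CPM, the others 11.9 to 33.8) and WT 6 h replicate 4 was low for Gys2 (102 CPM, the others 137 to 153).

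The change from 0 h to 24 h differed between SIRT1intKO and WT at an unadjusted p below 0.05 for 2 of the 9 genes, Fbp1 (-1.45, p 9.63e-05, edgeR adjusted p 0.0699) and Slc2a2 (1.60, p 0.0147, adjusted p 0.275). Neither passed adjustment over all genes, where 12.7% had an unadjusted p below 0.05.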

How the results depend on the processing

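Of 640 values of single genes under the other settings, 597 kept their direction and their side of the threshold, as did 2344 of 2448 with 1 library left out. The settings glmTreat and no fold threshold keep the log2 changes of the main fit, so under them no direction could change. The counts also include values that were not called in the main fit. The 27 genotype differences at 0 h and 6 h and interactions at 6 h were called under no alternative, and 19 of them changed sign under at least 1. A test against the fold threshold itself (glmTreat) left 0 members called at 6 h in WT, 0 in SIRT1intKO, 1 at 24 h against 0 h in WT, 1 and 2 from 6 h to 24 h in WT and SIRT1intKO, and 0 between genotypes at 24 h. In the same order it called 749, 701, 670, 80, 261 and 0 of all 14980 genes. Without a fold threshold 5 members passed at 6 h and 6 at 24 h in SIRT1intKO, beside 5758 and 7520 of all genes. With only the compared groups, 0 members were called between genotypes at 24 h and 1 from 6 h to 24 h in WT, beside 0 and 406 of all genes. DESeq2 called 1 member in the 24 h interaction, Fbp1, beside 96 of all genes.

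The replicate numbers of the labels showed no pairing of the livers. Deviations of 76 same-numbered pairs correlated between -0.31 and 0.22 (median -0.004), with 6 over 0.1. Those of 403 pairs with other numbers correlated between -0.57 and 0.64 (median 0.006), with 56 over 0.1. With the replicate block 1 member was called between genotypes at 24 h (Fbp1), beside 168 of all genes, since Slc2a2 had a difference of 1.79 and an edgeR adjusted p of 0.0611. Slc2a2 was also not called in WT at 6 h (-0.96, adjusted p 0.0792). The block moved no other count of members by more than 1.5 times.

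Among the pathway genes, glmTreat called 8 and 5 at 6 h in WT and SIRT1intKO, 9 and 19 at 24 h, 1 and 2 from 6 h to 24 h, and 0 between genotypes at 24 h, beside 749, 701, 670, 1465, 80, 261 and 0 of all 14980 genes. No fold threshold gave 49 and 42, 40 and 59, 25 and 34, and 6, beside 5604, 5758, 5113, 7520, 2468, 4138 and 870 of all genes. With only the compared groups 5 were called from 6 h to 24 h in WT and 0 between genotypes at 24 h, beside 406 and 0 of all genes. DESeq2 called 5 between genotypes at 24 h and 1 in the 24 h interaction, beside 561 and 96 of all genes.

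With 1 library left out, the count of members ranged from 2 to 4 at 6 h in SIRT1intKO (4 without SIRT1intKO 6 h replicate 3), from 1 to 3 from 6 h to 24 h in WT (1 without WT 24 h replicate 2), from 1 to 2 between genotypes at 24 h, and from 0 to 1 in the 24 h interaction, where Fbp1 was called without WT 24 h replicate 1 (-1.59, adjusted p 0.0265) or SIRT1intKO 24 h replicate 5 (-1.67, adjusted p 0.00416). Slc2a2 in WT at 6 h lost its call without WT 6 h replicates 1, 2, 3, 4 or 6, WT 0 h replicates 1, 3, 4, 5 or 6, SIRT1intKO 0 h replicates 1, 3 or 6, or SIRT1intKO 24 h replicates 3, 4 or 7 (-1.20 to -0.90 over all). Calls were gained for Fbp1 at 24 h in SIRT1intKO without SIRT1intKO 24 h replicate 5 (-1.08), for Hk2 at 24 h in WT without WT 24 h replicate 4 (1.17), for Slc2a2 at 6 h in SIRT1intKO without SIRT1intKO 6 h replicate 3 (-1.41) and for Ppargc1a at 6 h in SIRT1intKO without SIRT1intKO 6 h replicates 2, 3 or 4 (1.09 to 1.13).

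Signs changed only in values that were not called. Hk2 at 6 h in SIRT1intKO was -0.00044 with DESeq2, -0.00039 with its size factors and -0.066 with upper-quartile scaling, and -0.41 to 0.21 with 1 library left out. Ranges with 1 library left out also crossed 0 for Pck1 at 6 h in WT (-0.084 to 0.14), Pfkfb3 and Ppargc1a at 24 h in WT (-0.35 to 0.83 and -0.67 to 0.17), and Pfkfb3 from 6 h to 24 h in SIRT1intKO (-0.80 to 0.044). Between genotypes at 24 h they crossed 0 for Hk2 (-0.025 to 0.71), Pfkfb3 (-0.012 to 1.26), Ppargc1a (-0.71 to 0.12) and Pygl (-0.45 to 0.14), and in the 24 h interaction for Pklr (-0.19 to 0.24), Ppargc1a (-0.62 to 0.20) and Pygl (-0.57 to 0.024). The number of correlated pairs ranged from 8 to 12. The cause of these shifts was not tested. Hk2, at 0.314 to 3.09 CPM, is the member whose values depth limits most.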
